A study of Homo sapiens with 6 samples.

Results

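Glucose is broken down to pyruvate and lactate by the glycolytic enzymes, and the genes of many of these enzymes are activated by the hypoxia-inducible factors when oxygen is scarce. The factors pair an oxygen-labile alpha subunit, HIF1A or EPAS1, with the stable subunit ARNT. With oxygen present, the prolyl hydroxylases EGLN1 and EGLN3 mark the alpha subunit for the VHL ubiquitin ligase, so that HIF1A is set largely by protein stability rather than by its transcript. In tumour cells the pathway is known for sustaining glycolysis also in air. A named set of 38 genes of glycolysis and the hypoxia response was taken, of which 35 had a transcript cluster with a single gene symbol and were measured, out of 22375 genes in all. CA9, SLC16A1 and SLC16A3 were not analysed here. The 35 were 16 glycolytic enzymes, 6 HIF factors and regulators, 8 hypoxia targets outside glycolysis, 2 glucose transporters, and PFKFB3, PFKFB4 and PDK1, which set the pace of glycolysis and the fate of pyruvate.

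The 3 PD 0332991 samples were PC3-ML cells, grown in serum-containing DMEM and given 500 nM PD 0332991 in DMSO for 24 h. The 3 DMSO samples were the same cells given DMSO alone, so that both groups carried the vehicle. PD 0332991, or palbociclib, inhibits CDK4 and CDK6 and thereby keeps the retinoblastoma protein active. The labels name no oxygen level, nor whether replicates came from separate cultures, so the spread behind each p-value is that of these arrays and could be technical. PC3-ML is 1 cell line, derived from the human prostate cancer line PC-3 for its metastatic behaviour, and only RNA was measured, not enzyme activity or flux.

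Array medians over the genes tested lay between 5.33 and 5.37 on the log2 scale, and arrays of the same group correlated at 0.9977 to 0.9985 across genes, which are not independent replicates. The 5 proliferation genes examined (MKI67, TOP2A, CCNA2, CDK1 and RRM2) all fell with PD 0332991, by 3.25 to 4.48 on the log2 scale. The epithelial keratins KRT8, KRT18 and KRT19 averaged 11.21 to 12.64 with PD 0332991 and 11.20 to 12.23 with DMSO, and KRT8 and KRT19 rose. The epithelial markers EPCAM and CDH1 averaged 6.90 and 6.57 with PD 0332991 and 6.83 and 6.49 with DMSO. KRT18, EPCAM and CDH1 did not pass the threshold given below. The 4 leukocyte markers measured averaged 3.81 to 4.51 with PD 0332991 and 3.85 to 4.45 with DMSO, and none of them or of the 6 endothelial and fibroblast markers changed. KLK2, KLK3 and TMPRSS2, androgen-regulated luminal prostate genes, averaged 3.51, 4.36 and 5.11 with PD 0332991 and 3.41, 4.38 and 5.08 with DMSO. These are arrays of bulk RNA: fewer cells with a transcript and less of it per cell cannot be told apart.

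Changes in the pathway were small and went in both directions. Of the 35 genes, 3 rose with PD 0332991 (ALDOC, PFKM and DDIT4) and 4 fell (KDM3A, PGAM1, ENO2 and TPI1), meaning a limma adjusted p under 0.05 over all genes tested. The other 28 did not pass. With quantile scaling 5 rose and 2 fell; with 1 array left out 3 rose in each case, and 1 fell without DMSO 1, DMSO 2 or PD 0332991 replicate 1 or 2, 2 without PD 0332991 replicate 3 and 4 without DMSO 3. Over all genes tested 11.3% passed, 5.57% higher and 5.74% lower, against 20.0% of these 35, a share that was not tested. Most of the 35 read above the array medians of 5.33 to 5.37, while all genes include the dimmer ones. With only genes at or above the median level fitted, 3312 genes passed, and 4 more of the 35 did. That fit held fewer genes than the 22375 of the main fit, of which 2531 passed. The share passing there was therefore higher than 11.3%, so 11.3% is not matched to these genes in level. The part of expression level in this share, and in the shares of smaller groups below, was not tested. The largest difference among the 35 was 1.45-fold (ALDOC), while MKI67 was 22.4-fold lower. The median log2 change was -0.05, against 0.02 over all genes, and the median size of the change regardless of sign was 0.12, against 0.08. Changes below 0 were seen for 25 of the 35 genes, and over all genes for 9393 of 22375. The 3 PD 0332991 and 3 DMSO values did not overlap for 19 of the 35, of which 13 were lower and 6 higher with PD 0332991, while 29.9% of all genes had no overlap, 12.6% lower and 17.2% higher.

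**Figure D1:**
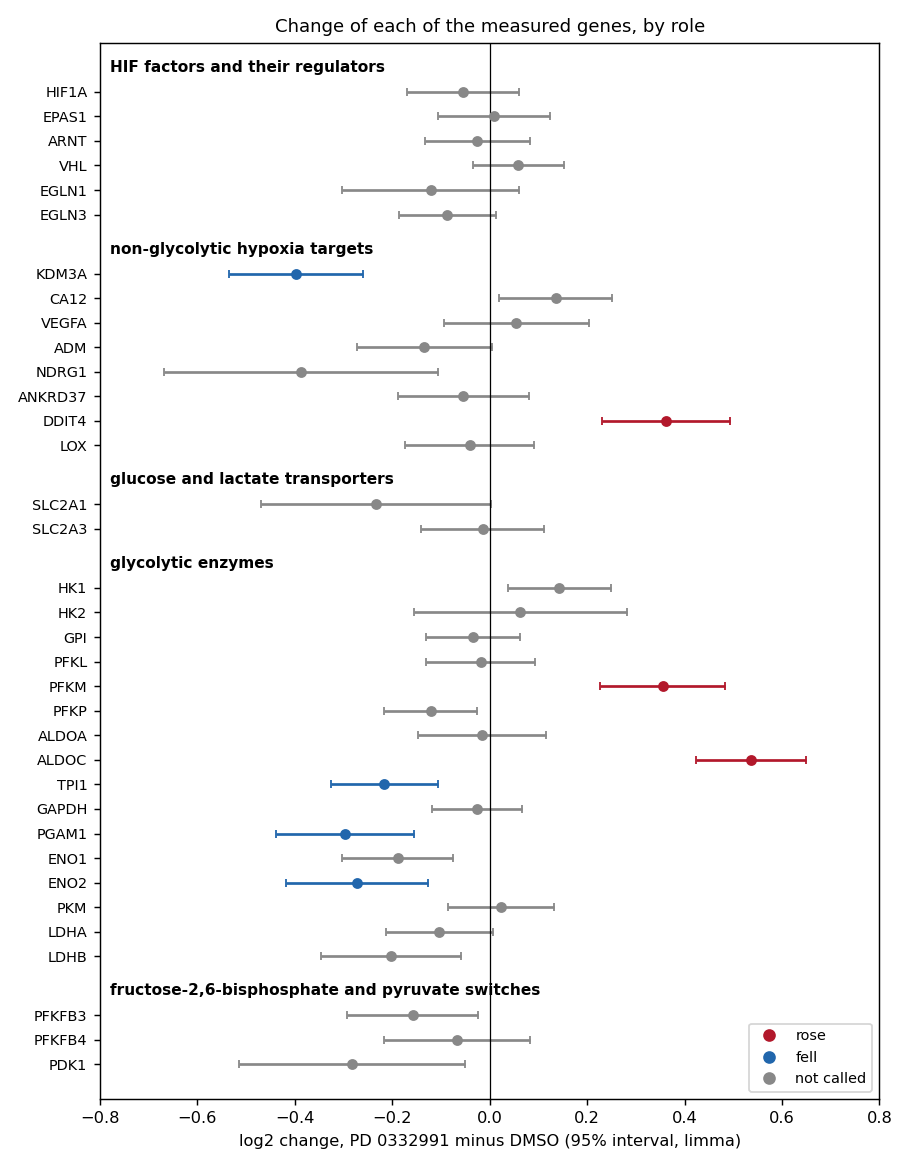
Log2 change of each measured gene, PD 0332991 minus DMSO, by role. Points are changes from limma over 3 arrays against 3 and bars are 95% intervals; red genes rose, blue genes fell and grey genes did not pass the threshold. ALDOC lies farthest to the right at 0.54 and KDM3A farthest to the left at -0.40.

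Of the 16 glycolytic enzymes 2 rose, 3 fell and 11 did not pass, so that 31.2% passed, against 11.3% of all genes, with a median log2 change of -0.03. The 3 falls all lost their calls with the replicate number as a block, an ordinary linear model, adjustment over all clusters and 4 of the 6 omissions of an array. ALDOC, the brain-type aldolase, which splits the hexose bisphosphate, read 8.60, 8.70 and 8.61 on the PD 0332991 arrays, against 8.11, 8.13 and 8.06 on the DMSO arrays (log2 expression). All 3 treated arrays were above every DMSO array by more than the spread within either group. The log2 change was 0.54 ± 0.047 (SE, limma adjusted p = 0.000696), the 136th largest of the 1247 rises over all genes. ALDOA, the muscle-type aldolase that most cells use, read 6.78, 6.75 and 6.92 on the PD 0332991 arrays, against 6.81, 6.86 and 6.82 on the DMSO arrays. Its groups overlapped, and its change was -0.02 (95% interval -0.15 to 0.11), with a limma adjusted p = 0.904. How well the ALDOA cluster follows its transcript is not known.

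PFKM, the muscle isoform of phosphofructokinase, the main control point of glycolysis, read 9.65, 9.66 and 9.76 on the PD 0332991 arrays, against 9.27, 9.40 and 9.34 on the DMSO arrays. Its groups were apart, and it rose 1.28-fold (log2 change 0.36 ± 0.054, SE, limma adjusted p = 0.00754). The liver isoform PFKL had a change of -0.02 (95% interval -0.13 to 0.09) and overlapped between the groups. The platelet isoform PFKP read 9.92, 9.91 and 9.89 on the PD 0332991 arrays, against 10.04, 10.05 and 9.99 on the DMSO arrays. Its values were lower on every treated array, but the change of -0.12 did not pass (limma adjusted p = 0.117). Of the isoforms of this step only PFKM passed the test, so opposite movement of isoforms is not shown.

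Of the enzymes after the splitting of the hexose, TPI1, PGAM1 and ENO2 fell. TPI1, which interconverts the triose phosphates, read 11.33, 11.27 and 11.26 on the PD 0332991 arrays, against 11.51, 11.55 and 11.45 on the DMSO arrays, and was 1.16-fold lower (log2 change -0.22 ± 0.046, limma adjusted p = 0.0275). PGAM1, a phosphoglycerate mutase, read 11.39, 11.47 and 11.59 on the PD 0332991 arrays, against 11.81, 11.79 and 11.74 on the DMSO arrays. It was 1.23-fold lower (log2 change -0.30 ± 0.06, limma adjusted p = 0.0218), with the treated arrays farther apart than the DMSO arrays. ENO2, the neuronal enolase, read 9.70, 9.72 and 9.74 on the PD 0332991 arrays, against 10.04, 10.06 and 9.87 on the DMSO arrays, 1.21-fold lower (log2 change -0.27 ± 0.061, limma adjusted p = 0.0334). All treated arrays were below all DMSO arrays for each of these 3 genes. Their calls were not stable: with 1 array left out, the limma adjusted p reached 0.0984 for TPI1, 0.0770 for PGAM1 and 0.108 for ENO2. Of the 6 omissions, that of DMSO 3 kept TPI1 and ENO2 past the threshold (0.0431 and 0.0127) and the other 5 did not, and PGAM1 passed only without PD 0332991 replicate 3 (0.0146).

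ENO1, the enolase found in most tissues, missed the threshold narrowly. It read 14.94, 14.91 and 15.005 on the PD 0332991 arrays, against 15.15, 15.18 and 15.09 on the DMSO arrays, with no overlap, a change of -0.19 (95% interval -0.30 to -0.08) and a limma adjusted p = 0.0505. For LDHB, the lactate dehydrogenase subunit that favours pyruvate formation, the change was -0.20 (95% interval -0.35 to -0.06) and the limma adjusted p = 0.0841. LDHA, the subunit that favours lactate, had a change of -0.10 (95% interval -0.21 to 0.01), with a limma adjusted p = 0.234. Both lactate dehydrogenase genes were lower on every treated array than on any DMSO array. HK1, the hexokinase of most tissues, read 10.96, 10.92 and 10.97 on the PD 0332991 arrays, against 10.84, 10.83 and 10.75 on the DMSO arrays, higher on every treated array, with a change of 0.14 (95% interval 0.04 to 0.25) and a limma adjusted p = 0.0974. HK2, the hexokinase that hypoxia and growth signals induce, overlapped between the groups (change 0.06 (95% interval -0.16 to 0.28)), with values from 9.62 to 9.79 with PD 0332991 and from 9.46 to 9.79 with DMSO.

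GAPDH, whose transcript is a common reference in expression assays, read 17.26, 17.23 and 17.25 on the PD 0332991 arrays, against 17.25, 17.29 and 17.29 on the DMSO arrays. Its change was -0.03 (95% interval -0.12 to 0.07), and the SD within each group was 0.015 with PD 0332991 and 0.021 with DMSO. PKM, the pyruvate kinase of most tissues and tumours, had a change of 0.02 (95% interval -0.09 to 0.13), and GPI, the isomerase of the second step, one of -0.04 (95% interval -0.13 to 0.06). The 2 spliced forms of PKM share 1 transcript cluster here and were not separated. The groups of GAPDH, PKM and GPI overlapped, and their intervals leave room for changes of at most 0.13 in size on the log2 scale.

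**Figure D2:**
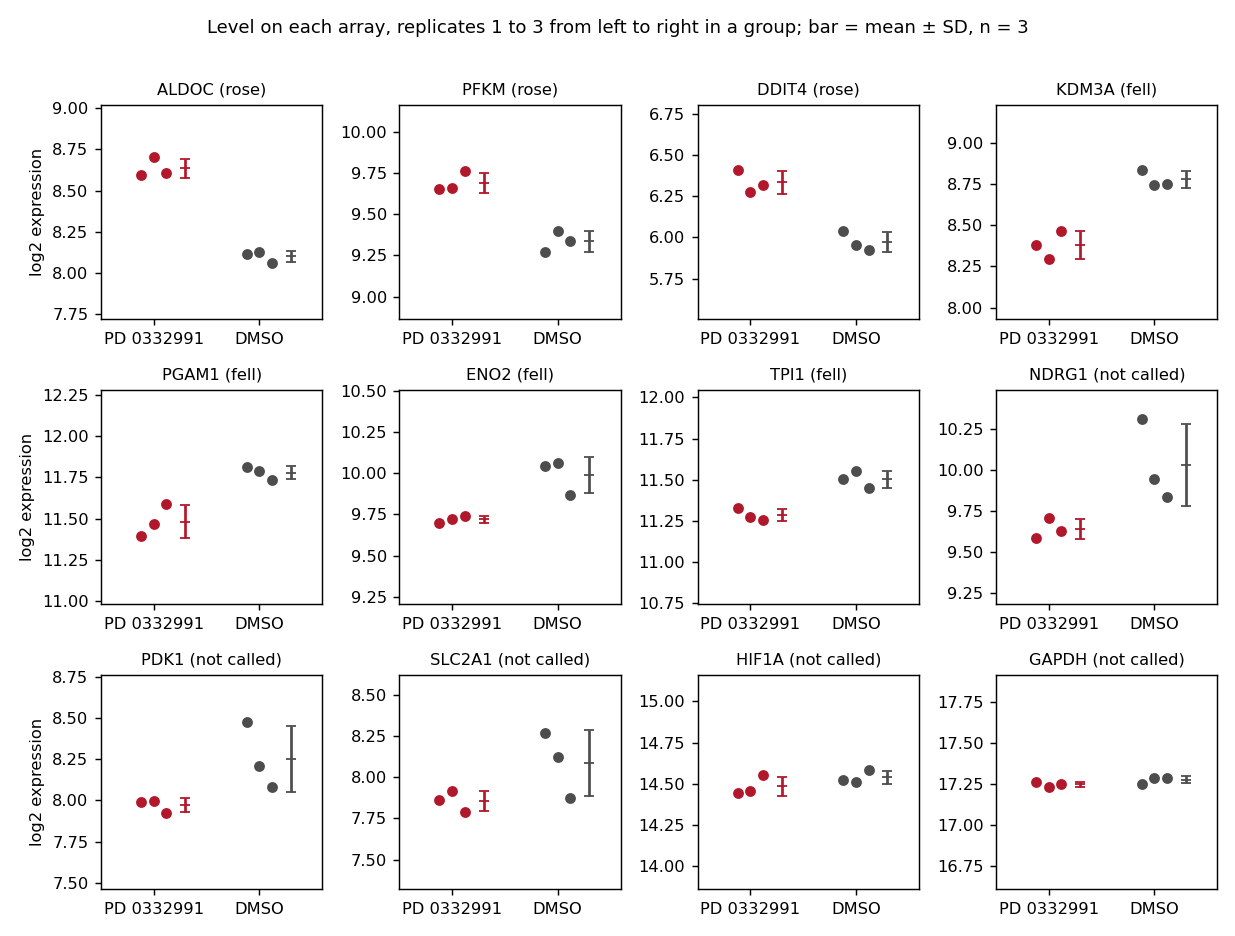
Level of 12 of the genes on each array (log2 expression), PD 0332991 left and DMSO right; every panel spans 1.3 log2 units, and bars show the mean ± SD of 3 arrays. The first 7 panels are the genes that passed the threshold, without overlap between the groups; in the NDRG1, PDK1 and SLC2A1 panels the DMSO arrays are spread more widely than the PD 0332991 arrays.

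Transcripts of the HIF factors and of their oxygen-dependent regulators did not pass the threshold, 6 of 6, with changes from -0.12 to 0.06; with limma and with an ordinary linear model 0 passed, and 0 had an unadjusted limma p under 0.05. HIF1A read 14.44, 14.46 and 14.55 on the PD 0332991 arrays, against 14.52, 14.51 and 14.58 on the DMSO arrays, overlapping between the groups, with a change of -0.05 (95% interval -0.17 to 0.06). ARNT, its partner, had a change of -0.03 (95% interval -0.13 to 0.08), and VHL, the substrate receptor of the ligase, one of 0.06 (95% interval -0.04 to 0.15). EGLN1, the main oxygen-sensing hydroxylase, had a change of -0.12 (95% interval -0.30 to 0.06). For EGLN3, a hydroxylase that HIF itself induces, the change was -0.09 (95% interval -0.19 to 0.01), with all treated arrays below all DMSO arrays (limma adjusted p = 0.27). EPAS1, the other alpha subunit, lay between 3.82 and 3.94 with PD 0332991 and between 3.83 and 3.90 with DMSO. EPAS1, EGLN3, SLC2A3 and LOX all read below 4.5 on every array. No detection calls were used here, so whether these 4 were above background is not known.

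Among the 8 hypoxia targets outside glycolysis 1 rose, 1 fell and 6 did not pass, so that 25% passed, against 11.3% of all genes. Their median log2 change was -0.05. KDM3A, a histone H3 lysine demethylase, read 8.38, 8.30 and 8.47 on the PD 0332991 arrays, against 8.84, 8.74 and 8.75 on the DMSO arrays. It fell 1.32-fold with no overlap (log2 change -0.40 ± 0.058, SE, limma adjusted p = 0.00607), and the adjusted p stayed between 0.00911 and 0.0282 with any array left out. DDIT4, an inhibitor of mTOR signalling that stress and glucocorticoids also induce, moved the other way. It read 6.41, 6.27 and 6.32 on the PD 0332991 arrays, against 6.04, 5.95 and 5.92 on the DMSO arrays, 1.29-fold higher (log2 change 0.36 ± 0.055, SE, limma adjusted p = 0.00751). With 1 array left out its adjusted p lay between 0.0144 and 0.0356, that of PFKM between 0.0177 and 0.0307 and that of ALDOC between 0.00352 and 0.00504. With adjustment over all clusters neither DDIT4 nor PFKM passed (limma adjusted p = 0.0520 and 0.0529), while ALDOC and KDM3A did.

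NDRG1, a hypoxia-induced gene with a role in differentiation, had nearly as large a difference as KDM3A but did not pass. It read 9.59, 9.71 and 9.63 on the PD 0332991 arrays, against 10.31, 9.94 and 9.83 on the DMSO arrays, without overlap, with a change of -0.39 (95% interval -0.67 to -0.11) and a limma adjusted p = 0.0926. DMSO 1 stood above the other two DMSO arrays; without it the change was -0.25 (limma adjusted p = 0.0765). CA12, a membrane carbonic anhydrase, was higher on every treated array, with a change of 0.14 (95% interval 0.02 to 0.25) and a limma adjusted p = 0.147. ADM, which encodes the vasodilator adrenomedullin, had a change of -0.13 (95% interval -0.27 to 0.00). VEGFA, the angiogenic growth factor, read 6.56, 6.68 and 6.56 on the PD 0332991 arrays, against 6.63, 6.56 and 6.45 on the DMSO arrays, overlapping, with a change of 0.05 (95% interval -0.09 to 0.20). Changes were -0.05 for the ankyrin repeat gene ANKRD37 and -0.04 for the collagen cross-linking oxidase LOX, both with overlap.

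Of the transporters, SLC2A1, the glucose transporter GLUT1, read 7.86, 7.91 and 7.79 on the PD 0332991 arrays, against 8.27, 8.12 and 7.87 on the DMSO arrays. The lowest DMSO array lay within the treated range, so the groups overlapped, and the change of -0.23 (95% interval -0.47 to 0.00) did not pass (limma adjusted p = 0.214). That call depended on DMSO 3: without it the change was -0.34, 1.27-fold lower, with a limma adjusted p = 0.0401, while without DMSO 1 it was -0.14 (limma adjusted p = 0.430). SLC2A3, the neuronal glucose transporter, had a change of -0.01 (95% interval -0.14 to 0.11). Of the pair, 0 passed with limma or an ordinary linear model and 0 had an unadjusted limma p under 0.05.

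PFKFB3 and PFKFB4 make and break down the sugar bisphosphate that activates phosphofructokinase, and PDK1 is a kinase that holds back pyruvate dehydrogenase; 0 of the 3 passed with limma or an ordinary linear model, and 2 (PFKFB3 and PDK1) had an unadjusted limma p under 0.05. PFKFB3 read 6.71, 6.68 and 6.65 on the PD 0332991 arrays, against 6.94, 6.81 and 6.76 on the DMSO arrays, lower on every treated array (change -0.16 (95% interval -0.29 to -0.02), limma adjusted p = 0.141). PFKFB4 had a change of -0.07 (95% interval -0.22 to 0.08), with overlap. PDK1 read 7.99, 7.996 and 7.92 on the PD 0332991 arrays, against 8.47, 8.21 and 8.08 on the DMSO arrays. Its treated arrays lay below all DMSO arrays, of which DMSO 1 was the highest, and the change was -0.28 (95% interval -0.51 to -0.05) (limma adjusted p = 0.128). Without DMSO 1 the change was -0.17 (limma adjusted p = 0.171), and without DMSO 3 it was -0.37 (limma adjusted p = 0.0625).

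The DMSO arrays differed from each other on these genes. DMSO 1 had the highest of the 3 DMSO values for 18 of the 35 genes (51.4%), against 31.5% of all genes tested, and DMSO 3 had the lowest for 24 of 35 (68.6%), against 34.1%. For the 16 glycolytic enzymes DMSO 1 was highest for 5. For the 19 other genes it was highest for 13, and among 26 further hypoxia targets for 18. Relative to each gene's DMSO mean, the mean over PFKFB3, PFKFB4 and PDK1 was -0.15, -0.17 and -0.19 on the treated arrays, against 0.15, -0.04 and -0.11 on the DMSO arrays. The mean over the 16 glycolytic enzymes was -0.03, -0.05 and 0.00 on the treated arrays, against 0.01, 0.03 and -0.04 on the DMSO arrays, so that these groups overlapped. The SD of SLC2A1 was 0.062 with PD 0332991 and 0.20 with DMSO, and the median SD over all genes was 0.067 with PD 0332991 and 0.065 with DMSO. The part that this spread has in the changes of single genes was not tested beyond leaving out each array; this pattern was chosen after the values were seen.

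**Figure D3:**
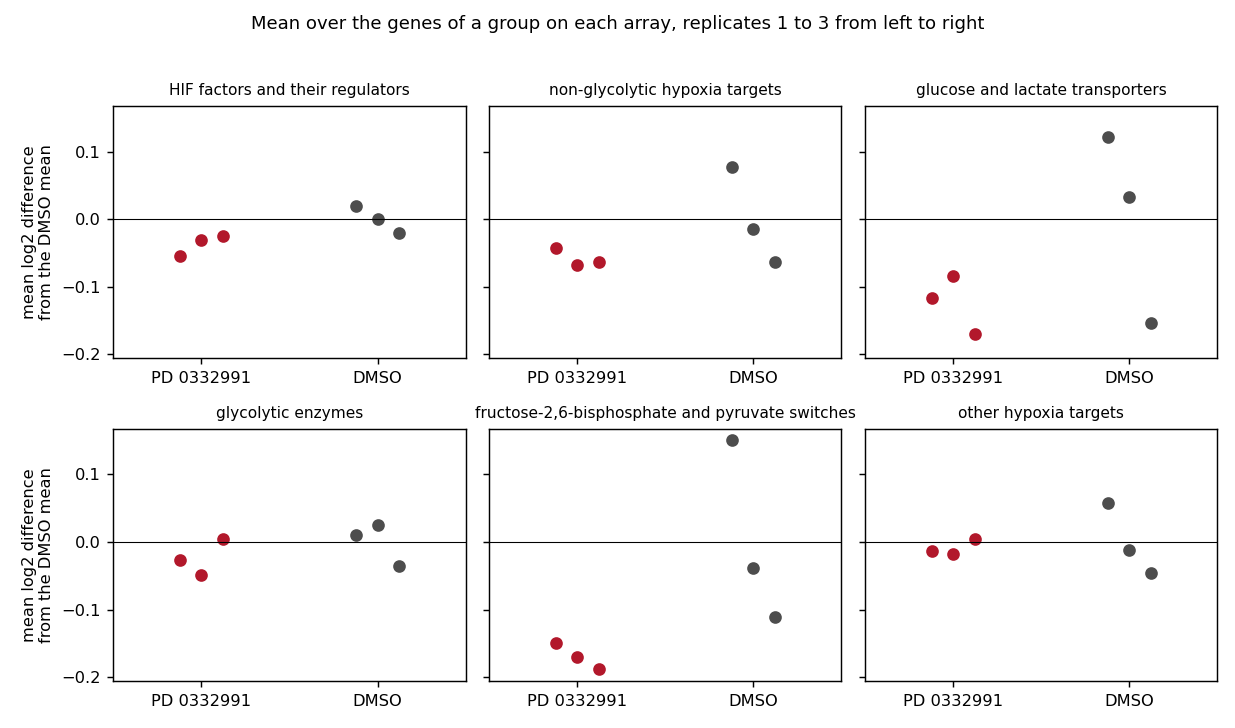
Mean of the genes of a group on each array, as the log2 difference from each gene's DMSO mean, PD 0332991 left and DMSO right in each panel. In the panel of PFKFB3, PFKFB4 and PDK1 the treated arrays lie between -0.19 and -0.15 and the DMSO arrays between -0.11 and 0.15; in the panel of glycolytic enzymes the groups overlap.

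Isozymes of a step, and other related genes, were set against each other within each array by their changes. A level cannot be compared between probe sets. Whether the clusters of a pair register a change to the same degree was not tested. Of 12 such pairs, 10 had both genes measured. The change of ALDOC minus that of ALDOA was 0.55 (95% interval 0.34 to 0.77), that of PFKM minus PFKL 0.37 (95% interval 0.19 to 0.56) and that of PFKP minus PFKL -0.10 (95% interval -0.20 to -0.01). PFKFB4 minus PFKFB3 came to 0.09 (95% interval 0.01 to 0.17). In each of these 4 pairs the groups did not overlap, with a two-sided exact permutation p = 0.1, the smallest that 3 against 3 allows, and 0.2 after Benjamini-Hochberg adjustment over the 10 pairs. The design therefore cannot reach 0.05 by this test. In 5 further pairs the groups overlapped: ENO2 minus ENO1 was -0.08 (95% interval -0.21 to 0.04), LDHB minus LDHA -0.10 (95% interval -0.30 to 0.10), HK2 minus HK1 -0.08 (95% interval -0.32 to 0.16), EPAS1 minus HIF1A 0.06 (95% interval -0.13 to 0.26) and EGLN3 minus EGLN1 0.03 (95% interval -0.27 to 0.33). Exact permutation p-values of these 5 lay between 0.2 and 0.9. The last pair, SLC2A3 minus SLC2A1, was 0.22 (95% interval 0.02 to 0.42). Its groups did not overlap either (exact permutation p = 0.1, and 0.2 after adjustment). SLC2A3, EPAS1 and EGLN3 are not known to be above background, so the 3 pairs that hold them show no difference between isozymes, and that of SLC2A3 largely repeats the change of SLC2A1 itself (-0.23, not past the threshold).

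The hypoxia-inducible factors bind DNA at a short core, written here as ACGTG or GCGTG on either strand, so the 250 bases upstream of each RefSeq gene start (build GRCh38.p14) were searched for these letters. Upstream sequence is shown for genes that rose (ALDOC and DDIT4) and that fell (KDM3A and PGAM1), with the core letters in capitals and, for KDM3A, from the more upstream of its starts.
ALDOC, chr17:28576896-28577145, minus strand: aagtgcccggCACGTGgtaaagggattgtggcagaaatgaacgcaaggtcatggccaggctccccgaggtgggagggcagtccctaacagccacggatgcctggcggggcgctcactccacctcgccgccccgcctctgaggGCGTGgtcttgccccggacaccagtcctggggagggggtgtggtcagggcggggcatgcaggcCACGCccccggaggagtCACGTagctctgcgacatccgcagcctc
DDIT4, chr10:72273674-72273923, plus strand: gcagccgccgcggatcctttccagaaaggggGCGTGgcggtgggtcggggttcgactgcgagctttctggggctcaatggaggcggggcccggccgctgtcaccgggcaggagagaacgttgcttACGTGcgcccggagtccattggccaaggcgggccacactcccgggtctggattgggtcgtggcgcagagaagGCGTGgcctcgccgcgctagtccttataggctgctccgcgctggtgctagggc
KDM3A, chr2:86441121-86441370, plus strand: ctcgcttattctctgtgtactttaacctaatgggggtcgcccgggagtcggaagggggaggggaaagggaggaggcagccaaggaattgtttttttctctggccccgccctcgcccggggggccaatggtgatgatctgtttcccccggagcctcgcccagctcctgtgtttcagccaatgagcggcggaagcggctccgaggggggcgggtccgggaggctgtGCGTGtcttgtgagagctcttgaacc
PGAM1, chr10:97427568-97427817, plus strand: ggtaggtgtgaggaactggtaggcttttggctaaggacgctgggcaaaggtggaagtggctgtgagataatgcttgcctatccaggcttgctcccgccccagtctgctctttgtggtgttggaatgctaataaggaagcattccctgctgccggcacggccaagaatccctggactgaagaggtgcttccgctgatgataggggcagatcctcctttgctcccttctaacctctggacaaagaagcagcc
The ALDOC window held 4 separate matches, 1 of which is CACGTG, which reads as ACGTG on both strands and is also an E-box. The DDIT4 window held 3, that of KDM3A 1 and that of PGAM1 0. These 4 genes do not stand for all 7 that passed: PFKM, which rose, had a match in 1 of its 7 windows, while TPI1, which fell, had 2 matches in 1 of its 2 windows and ENO2, which also fell, had 1 in its only window. No relation of the matches to the direction of change was tested. Sequences were found for 31 of the 35 genes, in 57 windows because some have several starts. At least 1 window with the core was found for 25 of the 31 genes (80.6%), against 47.4% of all genes in the table, and 59.6% of their windows held it, against 43.2% of all windows. The windows of these genes were richer in G and C, with a median of 68.0% against 58.0%. These genes also had 57 windows for 31 genes, against 35114 for 27303 over all, and more windows give more places for a match. The set was itself named for glycolysis and the hypoxia response. The parts of these in the difference were not tested. The core was found for 6 of the 7 genes that passed the threshold and for 19 of the 24 others. E2F letters (TTTCGCGC or TTTGGCGC, either strand) were found in 1 of the 57 windows, that of GAPDH, against 0.968% of all windows. A match describes letters only, not a bound site.

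Other genes of the pathways, from lists drawn up beside the 35, passed the threshold at shares from 0 to 9.09% in 4 lists and at 19.2% among further hypoxia targets, against 11.3% of all genes. Of 26 such targets measured out of 28 listed, 3 rose, 2 fell and 21 did not pass (median log2 change 0.01). ERO1A, an oxidase of disulfide formation in the ER, read 13.37, 13.30 and 13.45 on the PD 0332991 arrays, against 13.94, 13.86 and 13.78 on the DMSO arrays. It fell 1.4-fold with no overlap (log2 change -0.49 ± 0.06, SE, limma adjusted p = 0.00305), beside -0.40 for KDM3A. PLOD2, a collagen lysyl hydroxylase, read 9.36, 9.36 and 9.36 on the PD 0332991 arrays, against 9.76, 9.63 and 9.59 on the DMSO arrays, 1.23-fold lower (limma adjusted p = 0.0144). GYS1, the muscle glycogen synthase, rose by 0.26 on the log2 scale, the demethylase KDM4C by 0.20 and the circadian repressor BHLHE40 by 0.21, with limma adjusted p-values of 0.019, 0.0314 and 0.0415. With 1 array left out, ERO1A kept its call in all 6 cases (limma adjusted p up to 0.0172). The others lost theirs in some, with limma adjusted p up to 0.0535 for PLOD2 (without PD 0332991 replicate 1 or 2), 0.0743 for GYS1 (without DMSO 2, DMSO 3 or PD 0332991 replicate 1 or 2), 0.108 for KDM4C (all but PD 0332991 replicate 3) and 0.123 for BHLHE40 (all but DMSO 1).

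Of 11 further HIF pathway factors measured out of 13, SIAH2, a ubiquitin ligase that targets prolyl hydroxylases, fell 1.23-fold, with 6.20, 6.25 and 6.23 on the PD 0332991 arrays, against 6.54, 6.59 and 6.45 on the DMSO arrays and a limma adjusted p = 0.00962. None rose and 10 did not pass. The other members with the smallest p had changes of 0.15 for HIF1AN, the asparagine hydroxylase that restrains HIF, -0.18 for the coactivator CREBBP and 0.17 for elongin B (ELOB), with limma adjusted p-values from 0.0987 to 0.193. Among 18 further glycolytic enzymes and isozymes measured out of 20, 1 rose, none fell and 17 did not pass. TIGAR, a phosphatase that lowers the bisphosphate made by PFKFB3, was the member that rose (1.16-fold, limma adjusted p = 0.0372), and it did not pass with any array left out (0.0604 to 0.113). The phosphoglucomutases differed in sign, with changes of -0.33 (95% interval -0.54 to -0.12) for PGM2 and 0.21 (95% interval 0.07 to 0.35) for PGM1 (limma adjusted p = 0.0576 and 0.07), and LDHD had a change of 0.14. Among the 6 omissions of an array, PGM2 passed in 1, that of PD 0332991 replicate 3 (limma adjusted p = 0.00710), and PGM1 in 1, that of DMSO 3 (limma adjusted p = 0.0380).

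Of 15 genes of pyruvate entry and oxidation measured out of 16, SLC16A7, a monocarboxylate transporter, fell 1.14-fold (limma adjusted p = 0.0326), and did not pass with any array left out (0.0695 to 0.103). None rose. PDP1, the phosphatase that activates pyruvate dehydrogenase, had a change of 0.11, the pyruvate carrier subunit MPC1 0.18 and the kinase PDK4 0.16, none past the threshold. In the pentose phosphate pathway 0 of 7 genes measured out of 9 passed with limma or an ordinary linear model, and 1 had an unadjusted p under 0.05: RPIA, ribose phosphate isomerase, with a change of -0.20 (95% interval -0.34 to -0.06) and a limma adjusted p = 0.0797. It was followed by PGLS (0.07), H6PD (0.11) and TALDO1 (-0.06).

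**Figure D4:**
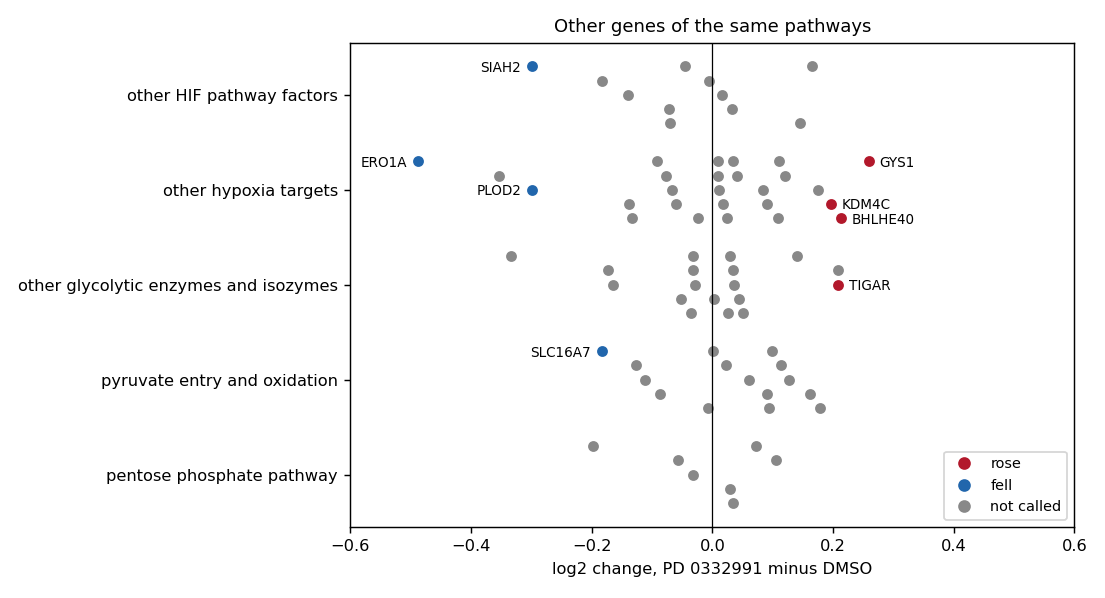
Log2 change, PD 0332991 minus DMSO, of the further genes of 5 lists, 1 point a gene; vertical position within a list has no meaning. Named red points rose and named blue points fell, from ERO1A at -0.49 to GYS1 at 0.26; grey points did not pass the threshold.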

How the data were processed

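Total RNA of 6 samples, 3 per group, was measured on Affymetrix human transcriptome arrays. The authors deposited a table with 1 log2 value for each transcript cluster and array; the scale was judged from its range (2.04 to 19.93). The log base, normalization and centring are not given in the sources used here. Per the submitters' processing notes, the software was Affymetrix Expression Console. No further normalization was applied.

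The table held 65535 clusters, and the 22685 with 1 gene symbol in the array's annotation were used. Symbols were updated through Entrez identifiers where these matched (20487). The brightest cluster per gene was kept, which left 22375 genes; each of the 35 genes reported on had 1 cluster. The comparison of groups used limma 3.58.1 under R 4.3.3 (lmFit and eBayes, two-sided), with Benjamini-Hochberg adjustment over all 22375 genes and a threshold of 0.05. Pairs of genes were tested by an exact permutation over arrays, with intervals from a linear model. In a simulated comparison of PD 0332991 with DMSO over 22375 genes, 50 genes were shifted at each of several sizes. There limma recovered 10 of 50 genes shifted by 0.25 (log2), 38 of 50 at 0.5, 48 of 50 at 1 and 49 of 50 at 2. Small changes were thus often missed in the simulation, and 12 unchanged genes were called. Far fewer genes were shifted than the 11.3% called in the data, and the Benjamini-Hochberg cutoff depends on that share. These counts therefore do not give the power of the comparison itself.

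The genes, lists and pairs were chosen with earlier results of these data known. Every measured gene of the set is described; in each further list, the 4 genes with the smallest p and all called genes where 5 or fewer were. Upstream sequences are RefSeq's, of build GRCh38.p14. As alternatives, fits were run with the replicate number as a block, leaving out each array, and with quantile and median scaling. Others used a filter on low levels, the mean of a gene's clusters, trended and robust moderation, or no moderation. The last, called adjustment over all clusters, repeated both the moderation and the adjustment over all clusters. The number of arrays limits the precision.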

Additional observations from a re-analysis of the deposited data

How the results depend on the processing

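Over all genes, 2531 passed the threshold, against 1559 with an ordinary linear model, 984 with adjustment over all clusters and 1602 to 1857 with 1 array left out. Of the 35 genes 4 fell. With the replicate number as a block 1 did, with quantile scaling 2, with genes at or above the median level only 7, with the ordinary linear model 1, with adjustment over all clusters 1, and with 1 array left out between 1 and 4. The number that rose, 3, was 5 with quantile scaling (CA12 and HK1 were added), 4 with genes at or above the median level only (HK1 was added) and 1 with adjustment over all clusters (ALDOC), and it was 3 with any array left out. ALDOC and KDM3A passed in all 14 alternatives, and DDIT4 and PFKM in 13, failing only with adjustment over all clusters (adjusted p = 0.0520 and 0.0529). Calls of TPI1, PGAM1 and ENO2 were lost with the block, the ordinary linear model and adjustment over all clusters, and those of TPI1 and ENO2 also with quantile scaling. ENO1 passed with the filter on low levels (0.0211) and with trended moderation (0.0469). No change of a named gene that passed anywhere turned its direction. The split over all genes moved too: 49.3% of calls were higher as deposited, 58.3% with quantile scaling, 41.6% with median scaling and 34.9% with adjustment over all clusters.

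The replicate numbers are not shown to pair the samples. Deviations of same-numbered arrays correlated at 0.02, -0.01 and 0.04, and 2 of 6 arrays correlated best with their own number. With that block, 1740 genes passed. Counts over all genes were lower with 1 array left out and with adjustment over all clusters. Single genes such as SLC2A1, without DMSO 3, gained a call even so. The fit over all clusters also repeated the variance moderation, and the parts of moderation and adjustment were not separated. The cause of the differences between settings was not tested. Without detection calls, changes of dim genes cannot be told from background.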
